A study of Mus musculus with 15 samples.

Results

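Histone genes were followed on Affymetrix Mouse Genome 430 2.0 arrays across 5 mouse embryonic stem (ES) cell lines. The genes were taken by symbol: every probe set annotated to a single gene whose symbol starts with Hist1h, Hist2h, Hist3h, Hist4h, H1f, H2af, H2ac, H2bc, H3c, H4c, H2az or H3f. That gave 24 probe sets for 17 genes, of 18193 genes named on the array. Of these, 9 probe sets belonged to 6 linker histone genes and 15 to 11 core histone genes. The annotation uses current symbols, so no member starts with Hist1h to Hist4h or H2af. A further 11 probe sets of 7 genes match through older symbols alone, and 24 probe sets are annotated to several genes that include histones. Both groups are described after the members.

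Core histones H2A, H2B, H3 and H4 form the octamer around which DNA is wound, and linker histone H1 binds where DNA enters and leaves it. Most of these genes are clustered copies expressed during DNA replication, and their mRNAs end in a stem-loop rather than a poly(A) tail. The replacement variants, such as H2A.Z and H3.3, come from genes outside the clusters, with polyadenylated mRNAs made throughout the cell cycle. The labels' protocol primed cDNA with T7-oligo(dT), which copies polyadenylated RNA. Values of the clustered genes, H1f2 among them, therefore need not follow their total mRNA, which was not measured. ES cells are rapidly dividing cells with open chromatin and a short G1 phase.

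Each line was measured on 3 arrays. NmB6D2 is a fertilised line from naturally mated C57BL6 females and DBA2 males. R1 is a purchased fertilised line whose label gives the 129X1/SvJ and 129S1/SvImJ strains, although the series' design text speaks of C57BL6 crosses for all lines. The other lines are parthenogenetic: the oocyte was activated without sperm, so both genomes are maternal. For OpB6D2 the oocytes were ovulated ones from B6D2F1 mice (C57BL6 mother, DBA2 father). For FpB6D2 and FpB6CBA they were grown in culture within preantral follicles, taken at 2 weeks of age from B6D2F1 and B6CBAF1 mice respectively, the latter with a CBA/Ca father. Each line is 1 derivation, and the labels do not say that its arrays came from separate cultures, so p-values measure the spread between arrays. NmB6D2 and FpB6D2 serve in several of the comparisons, whose values are therefore not independent.

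Values are log2 RMA values and are compared between lines for 1 probe set at a time, never between probe sets. A probe set was tested if 3 or more arrays reached 3.864, the overall median value, and was called at an adjusted p under 0.05 (limma, Benjamini-Hochberg over 24524 probe sets) with at least a 2-fold difference. This left 16 histone probe sets, 6 linker and 10 core. The arrays were alike in overall level, with medians over tested probe sets of 6.06 to 6.24. Across probe sets, the correlation between arrays was 0.992 to 0.998 within lines and 0.917 to 0.978 between them. The summed level of 10 ES cell markers lay at 14.71 to 14.95 (log2) on all arrays, although single markers were called. In R1 against NmB6D2, Zfp42 was 6.36-fold and Klf4 2.29-fold higher and Utf1 2.96-fold lower. In FpB6CBA against FpB6D2, Nanog was 3.01-fold and Klf4 3.87-fold lower, and Klf4 was also higher in OpB6D2 and FpB6D2 than in NmB6D2 (2.59-fold and 2.84-fold). Spiked hybridisation controls averaged 9.49 to 9.57 in NmB6D2, R1 and OpB6D2 but 10.05 in FpB6D2 and 10.16 in FpB6CBA. Spiked poly-A controls averaged 7.37 to 7.75 in the other lines and 8.30 in FpB6CBA. Within FpB6CBA, replicate 3 stood apart on both. It read 8.85 for poly-A against 8.01 and 8.05, and 9.71 for hybridisation against 10.37 and 10.41. The difference between 3′ and 5′ actin control probe sets, a sign of RNA quality, was 0.48 to 0.55 on the arrays of NmB6D2, R1 and OpB6D2, 0.62 to 0.65 in FpB6D2 and 0.66 to 0.76 in FpB6CBA. The same difference for GAPDH was -0.08 to -0.03 on the FpB6D2 arrays and 0.01 to 0.11 on those of the other lines. FpB6D2 was the lowest line for H1f2 and FpB6CBA for H2az1, and the part of these controls in the histone differences was not tested. In bulk RNA, fewer cells of a type and less RNA per cell cannot be told apart.

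Over the 5 lines together, 3 of 6 linker and 8 of 10 core probe sets differed (moderated F test, adjusted p under 0.05), against 83.8% of all probe sets tested. Without replicate 3 of FpB6CBA the linker count was 5. The linker histones held the widest difference among the members, at H1f2. The median range of the line means was 0.72 for linker and 0.55 for core probe sets, beside 0.72 for all probe sets tested, where 31.9% spanned at least 1 log2 unit. Among members, 2 linker probe sets and 1 core probe set spanned that much.

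Linker histone H1f2, which encodes the somatic subtype H1.2, read lowest in FpB6D2 at 2 of its 3 probe sets. The promoters of H1f2 and of 2 further linker genes of the chromosome 13 histone cluster, H1f4 and H1f6, are printed because they share a layout. The 250 bases before the start are given (RefSeq, GRCm38.p6, 5′ to 3′ on the gene's strand). The intervals are chr13:23738557-23738806 on the plus strand for H1f2, chr13:23622559-23622808 on the minus strand for H1f4, and chr13:23695561-23695810 on the plus strand for H1f6. Capitals mark AAACACA, the box known from linker histone promoters, and CCAAT, the site named after its letters.
H1f2: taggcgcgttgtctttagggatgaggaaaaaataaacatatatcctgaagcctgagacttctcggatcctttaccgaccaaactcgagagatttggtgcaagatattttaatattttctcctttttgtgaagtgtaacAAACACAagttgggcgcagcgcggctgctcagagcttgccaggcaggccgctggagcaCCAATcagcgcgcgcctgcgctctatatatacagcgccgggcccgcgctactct
H1f4: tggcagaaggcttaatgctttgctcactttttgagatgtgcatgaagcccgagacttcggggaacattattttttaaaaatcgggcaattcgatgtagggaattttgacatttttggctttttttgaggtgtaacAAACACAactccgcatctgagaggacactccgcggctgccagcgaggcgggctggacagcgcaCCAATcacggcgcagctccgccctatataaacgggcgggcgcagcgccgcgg
H1f6: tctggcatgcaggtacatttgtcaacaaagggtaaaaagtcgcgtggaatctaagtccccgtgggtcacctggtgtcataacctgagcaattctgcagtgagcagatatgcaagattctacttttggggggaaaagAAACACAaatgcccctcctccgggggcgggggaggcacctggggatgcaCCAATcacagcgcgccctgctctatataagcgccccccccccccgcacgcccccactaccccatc
AAACACA began 112 bases before the start in H1f2, 115 in H1f4 and 114 in H1f6, and CCAAT began 54, 52 and 65 bases before it. Among the 15 of 17 member genes with a promoter entry, AAACACA on either strand was found in 3 of 6 linker genes and in 1 of 9 core genes (H3f3a), against 6.25% of 32851 promoter windows of this length. CCAAT on either strand was found in 4 of 6 linker and 9 of 9 core genes, against 33.8%. TATATA, which can overlap TATAAA, was found in 3 of 6 linker and 2 of 9 core genes, against 5.25%, and TATAAA in 1 and 4, against 12.4%. The octamer ATTTGCAT was found in no linker gene and in 2 of 9 core genes (H2bc18 and H3f3b), against 1.6%. These are letter matches only.

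H1f2 probe set 1416101_a_at read 8.24, 8.40 and 8.38 in NmB6D2, and 8.33, 8.41 and 8.31 in FpB6CBA. It read 7.99, 7.95 and 8.05 in R1, and 8.79, 8.90 and 8.75 in OpB6D2. In FpB6D2 it read 6.68, 6.62 and 6.52. All FpB6D2 arrays lay below every array of the other lines by over 1 log2 unit, and the OpB6D2 arrays lay above all others. The line mean of FpB6D2 was 6.60 ± 0.08 (SD, n = 3), against 8.34 ± 0.09 in NmB6D2 and 8.81 ± 0.08 in OpB6D2.

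The second H1f2 probe set, 1436994_a_at, gave the same order of lines at its extremes. It read 7.13, 7.25 and 7.20 in NmB6D2 and 7.52, 7.64 and 7.61 in OpB6D2. FpB6D2 read 4.71, 4.41 and 4.97, below all arrays of the other lines. R1 (6.86, 6.24 and 6.49) overlapped with FpB6CBA (6.80, 6.85 and 7.06). R1 had the widest spread, with an SD of 0.31 against 0.06 in NmB6D2.

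The third H1f2 probe set, 1438204_at, did not follow. Its line means ran from 4.64 ± 0.20 in FpB6CBA to 4.89 ± 0.07 in R1, with 4.70 ± 0.06 in FpB6D2, and the lines overlapped. The F test gave an adjusted p of 0.126. In FpB6D2 against NmB6D2 its difference was -0.11 (95% interval -0.32 to 0.09). The suffix _a_at on the other H1f2 probe sets marks probes that match several transcripts of 1 gene, and a fit without probe sets of that kind called no linker histone in any comparison. Which transcripts each H1f2 probe set reads was not tested.

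**Figure D1:**
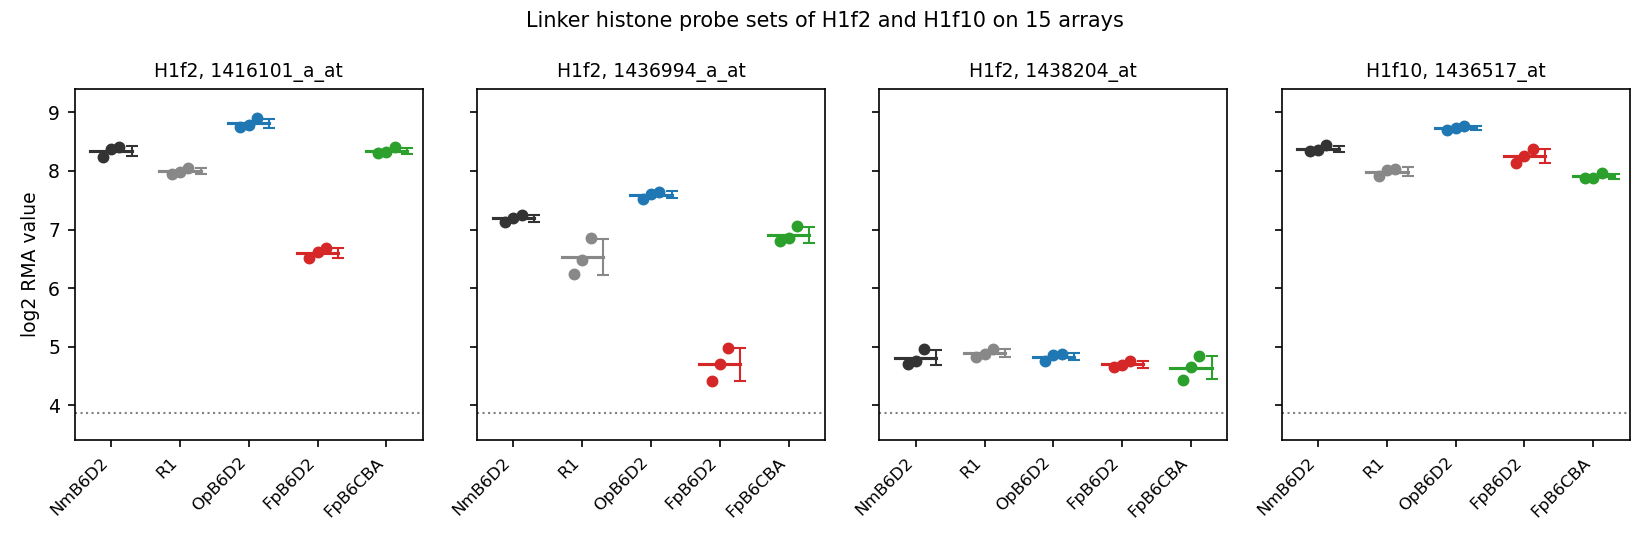
Log2 RMA values of the 3 H1f2 probe sets and the H1f10 probe set by line; points are the 3 arrays of a line in ascending order, horizontal bars line means, error bars SD, and the dotted line the filter value of 3.864. The FpB6D2 arrays lie below all others for 1416101_a_at and 1436994_a_at, while 1438204_at stays between 4.44 and 4.97 on all arrays.

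FpB6D2 and NmB6D2 share the C57BL6 and DBA2 backgrounds. They differ in mode of origin, in the culture of the oocyte and in the mother, a B6D2F1 female against a C57BL6 female. Their genotypes need not be equal, and with a single derivation each these differences cannot be told apart. Here both _a_at probe sets of H1f2 were called lower in FpB6D2 and no core histone was called. The differences were -1.74 ± 0.07 (SE; 3.33-fold, adjusted p = 9.94e-11) for 1416101_a_at and -2.50 ± 0.15 (5.65-fold, adjusted p = 5.81e-09) for 1436994_a_at, lower on 3 of 3 arrays each. Of all probe sets, 10.2% were called in this comparison and 5.72% were called lower. Without a minimum fold, 2 linker and 3 core probe sets passed, beside 55.5% of all, with the same counts at an unadjusted p under 0.05, beside 59.6%. Of 10 trophectoderm markers, 5 were lower and 1 higher in FpB6D2, with summed levels of 10.83 to 10.90 against 12.52 to 12.65 in NmB6D2. In OpB6D2 that sum was 9.98 to 10.16. The part of these markers in the H1f2 differences was not tested.

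FpB6D2 and OpB6D2 are both parthenogenetic lines of B6D2F1 females and differ in the source of the oocyte. As each is a single derivation, the source of the oocyte cannot be told apart from the line. The same 2 probe sets were called lower in FpB6D2, by 4.62-fold (-2.21 ± 0.07, adjusted p = 1.27e-10) and 7.45-fold (-2.90 ± 0.15, adjusted p = 8.53e-09). They were 2 of 6 linker probe sets, and 0 of 10 core probe sets were called, against 4.07% of all probe sets called and 2.9% called lower. Without a minimum fold, limma gave 3 linker and 5 core probe sets at an adjusted p under 0.05, beside 47.8% of all. At an unadjusted p under 0.05 there were 3 and 6, beside 54.1%. Of 10 trophectoderm markers 4 were higher and 0 lower in FpB6D2, with summed levels of 10.83 to 10.90 against 9.98 to 10.16. Of 12 primitive endoderm markers 1 was higher and 1 lower, and of 13 fibroblast markers 1 was lower. The part of these markers in the H1f2 difference was not tested.

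FpB6CBA and FpB6D2 share the follicle culture and differ in the paternal strain of the F1 females. As each is a single derivation, the strain cannot be told apart from the line. H1f2 was called higher in FpB6CBA, by 3.35-fold (1.74 ± 0.07, adjusted p = 8.77e-11) for 1416101_a_at and 4.62-fold (2.21 ± 0.15, adjusted p = 1.91e-08) for 1436994_a_at. Again no core probe set was called, where 10% of all were, and 5.21% were called higher. Without a minimum fold 3 linker and 7 core probe sets passed, beside 54.8% of all, and at an unadjusted p under 0.05 there were 3 and 8, beside 59.1%. Of 12 primitive endoderm markers 10 were higher and 1 was lower in FpB6CBA, with summed levels of 13.06 to 13.29 against 11.80 to 11.88. Of 10 trophectoderm markers 3 were higher and 2 lower, with sums of 12.11 to 12.35 against 10.83 to 10.90, and of 10 ES cell markers 2 were lower. The part of these markers in the histone differences was not tested. All 3 comparisons share the FpB6D2 arrays, so they show 1 low line rather than 3 separate findings.

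Against NmB6D2, H1f2 was not called in the remaining lines. In OpB6D2 it was higher by 0.47 ± 0.07 (adjusted p = 6.08e-05) and 0.40 ± 0.15 (adjusted p = 0.0413), short of 2-fold. In R1 it was lower by 1.27-fold (-0.35 ± 0.07, adjusted p = 0.000496) and 1.58-fold (-0.66 ± 0.15, adjusted p = 0.00141). In FpB6CBA 1416101_a_at differed by 0.01 (95% interval -0.14 to 0.15) and 1436994_a_at by -0.29 (-0.61 to 0.03).

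H1f10, which encodes the replication-independent linker variant H1.10 (H1X), has 1 probe set, 1436517_at, on chromosome 6. It read 8.71, 8.77 and 8.73 in OpB6D2, and 8.33, 8.36 and 8.44 in NmB6D2. FpB6D2 read 8.37, 8.25 and 8.14, R1 7.91, 8.02 and 8.04, and FpB6CBA 7.88, 7.89 and 7.96. OpB6D2 stood above all other lines without overlap, NmB6D2 overlapped with FpB6D2, and R1 overlapped with FpB6CBA. OpB6D2 exceeded NmB6D2 by 0.36 ± 0.07 (adjusted p = 0.000466) and FpB6CBA lay below it by 1.38-fold (-0.47 ± 0.07, adjusted p = 5.21e-05), neither reaching 2-fold. FpB6D2, the low line for H1f2, differed from NmB6D2 by -0.12 at H1f10 (95% interval -0.26 to 0.02).

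The remaining linker genes read near the filter value or well below it. H1f6, the testis subtype H1t, had line means of 3.85 to 4.10 (adjusted p of F = 0.463). H1f7, a spermatid linker histone, read 4.85 on 1 FpB6CBA array against 3.31 to 3.93 on the other 14 at 1430181_at (adjusted p of F = 0.132), and 2.53 to 2.97 at 1441954_s_at, which was not tested. H1f4, the somatic subtype H1.4, stayed at 2.68 to 3.02 on all arrays. H1f8, the oocyte linker histone, was below the filter on all arrays and not tested: it read 3.48, 3.80 and 3.34 in FpB6D2 and 3.34, 3.26 and 3.44 in FpB6CBA. The other lines read 2.75 to 2.99 there, so the lines from follicle-grown oocytes lay above the rest without overlap, at values below the filter. The same lines had the higher mean hybridisation controls and actin differences, which cannot be told apart from the origin of the oocyte here.

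Among core histones, the widest ranges of line means were at 1 H2az2 probe set and both H2az1 probe sets. H2A.Z replaces H2A at promoters and enhancers and is encoded by H2az1 on chromosome 3 and H2az2 on chromosome 11, each with 2 probe sets. Their promoters (RefSeq, GRCm38.p6) are shown as the unclustered counterpart to the linker genes, at chr3:137864237-137864486 on the plus strand and chr11:6444444-6444693 on the minus strand. Capitals mark CCAAT or its reverse complement ATTGG.
H2az1: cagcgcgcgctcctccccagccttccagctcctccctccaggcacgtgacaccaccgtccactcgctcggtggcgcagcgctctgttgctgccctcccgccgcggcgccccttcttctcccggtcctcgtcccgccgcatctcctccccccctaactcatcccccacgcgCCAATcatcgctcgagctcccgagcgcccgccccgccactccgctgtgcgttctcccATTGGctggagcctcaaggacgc
H2az2: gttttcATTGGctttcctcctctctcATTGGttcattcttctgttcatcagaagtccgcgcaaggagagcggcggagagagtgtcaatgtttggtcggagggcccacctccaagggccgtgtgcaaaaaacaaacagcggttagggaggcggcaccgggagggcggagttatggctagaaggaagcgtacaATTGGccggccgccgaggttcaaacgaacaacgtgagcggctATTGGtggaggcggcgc
H2az1 held 2 CCAAT matches and H2az2 held 4, and neither window held the linker histone box or either TATA motif.

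H2az1 was lowest in FpB6CBA. Probe set 1438091_a_at read 11.15, 11.20 and 11.12 in FpB6CBA against 11.65, 11.65 and 11.75 in NmB6D2. R1 read 12.12, 11.94 and 11.99, OpB6D2 12.04, 12.11 and 12.02, and FpB6D2 averaged 12.02 ± 0.03 (SD, n = 3). FpB6CBA lay below every other array, NmB6D2 lay between, and R1, OpB6D2 and FpB6D2 overlapped.

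The second H2az1 probe set, 1438092_x_at, read 10.29, 10.32 and 10.24 in FpB6CBA and 10.94 to 11.21 on the 12 arrays of the other lines. Against NmB6D2, H2az1 in FpB6CBA differed by -0.52 ± 0.06 (adjusted p = 9.28e-06) and -0.71 ± 0.07 (adjusted p = 3.28e-06), or 1.44-fold and 1.64-fold. Against FpB6D2 the differences were -0.86 ± 0.06 (1.82-fold, adjusted p = 2.94e-08) and -0.79 ± 0.07 (1.73-fold, adjusted p = 5.24e-07). None reached 2-fold, so H2az1 was not called. Further probe sets annotated to H2az1 together with the predicted gene Gm8203 were also lowest in FpB6CBA, at 12.53 against 12.84 to 12.97 for 1416415_a_at.

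H2az2 was highest in R1. Probe set 1436596_at read 6.57, 6.69 and 6.69 in R1 and 5.65, 5.65 and 5.44 in FpB6D2. It read 4.61, 4.63 and 4.75 in NmB6D2, 5.13, 4.97 and 5.23 in OpB6D2, and 5.16, 5.21 and 4.64 in FpB6CBA. R1 stood above all other arrays, FpB6D2 came next without overlap, and the rest overlapped in part. In R1 against NmB6D2 the difference was 1.99 ± 0.13 (3.96-fold, adjusted p = 8.26e-09), the single call among the 10 core probe sets in any comparison, where 12.7% of all probe sets were called and 7.6% called higher. No linker probe set was called there. At an adjusted p under 0.05 of any fold, limma gave 3 of 6 linker and 4 of 10 core probe sets, beside 58.9% of all, with the same counts at an unadjusted p under 0.05, beside 62.7%. R1 and NmB6D2 differ in the strains their labels give. As each is a single derivation, strain cannot be told apart from the line.

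The second H2az2 probe set, 1428029_a_at, kept the direction at a smaller size. It read 11.22, 11.19 and 11.20 in R1 and 10.69, 10.69 and 10.66 in NmB6D2, a difference of 0.52 ± 0.05 (1.44-fold, adjusted p = 1.15e-06). Its FpB6D2 arrays (11.10 to 11.19) reached the lowest R1 array. With 1 probe set per gene, the brightest, no core histone was called in R1. In FpB6D2 against NmB6D2 the 2 probe sets differed by 0.92 ± 0.13 and 0.46 ± 0.05 (adjusted p = 2.35e-05 and 4.68e-06). Of 13 fibroblast markers 8 were higher in R1 than in NmB6D2, with summed levels of 14.00 to 14.06 against 12.44 to 12.58. Of 12 primitive endoderm markers 5 were higher and 1 lower (sums of 12.21 to 12.31 against 11.71 to 11.88), and of 10 trophectoderm markers 1 was higher and 3 lower (12.33 to 12.49 against 12.52 to 12.65). The part of these markers in the H2az2 difference was not tested.

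**Figure D2:**
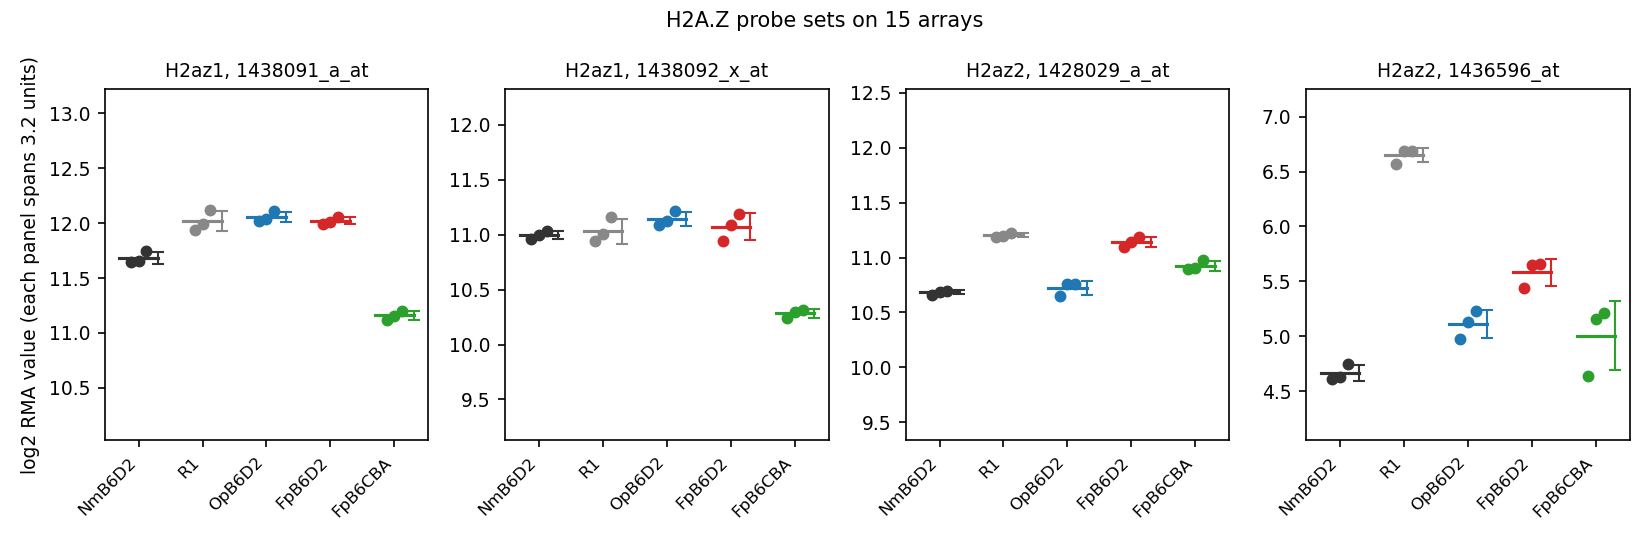
Log2 RMA values of the 2 probe sets of H2az1 and the 2 of H2az2 by line; points are arrays in ascending order, bars line means and error bars SD, and each panel spans the same 3.2 units. H2az1 is lowest in FpB6CBA at both probe sets, and H2az2 is highest in R1 at both, by 1.99 over NmB6D2 at 1436596_at.

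The clustered core genes with a probe set of their own had small differences and no call. The suffix _x_at marks probe sets with some probes shared with other sequences, as for H2bc22, 1 of the H2ac19 probe sets and 1 of the H2az1 probe sets. H2ac19, an H2A gene of the chromosome 3 cluster, was highest in FpB6CBA: 1418366_at read 5.73, 5.76 and 5.52 there against 5.21, 5.20 and 5.20 in NmB6D2. The difference was 0.46 ± 0.11 (adjusted p = 0.0037), and 0.41 ± 0.07 (adjusted p = 0.000467) for 1418367_x_at. H2bc22, an H2B gene on chromosome 13, read 4.98, 4.75 and 5.07 in OpB6D2, 4.47 on each NmB6D2 array, and 4.04, 4.14 and 4.20 in R1. OpB6D2 exceeded NmB6D2 by 0.46 ± 0.08 (adjusted p = 0.000376) and R1 lay below it by 1.27-fold (-0.35 ± 0.08, adjusted p = 0.00201), with no overlap between these lines.

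H3c7, an H3 gene, ran from 3.78 ± 0.06 in NmB6D2 to 4.16 ± 0.13 in FpB6CBA, and differed by 0.38 ± 0.10 (adjusted p = 0.00523). H2bc18 (3.51 to 3.75), H2bc21 (2.63 to 3.76 over 2 probe sets), H3c4 (3.37 to 4.10) and H3c11 (2.65 to 3.29), all clustered H2B or H3 genes, were not tested. The H3.3 genes H3f3a and H3f3b each had a probe set near the lower end, with line means of 4.10 to 4.39 at 1442087_at and 4.43 to 4.92 at 1430357_at. Neither differed among lines beyond the spread between arrays (adjusted p of F = 0.272 and 0.0753). In FpB6D2 against OpB6D2 alone, H3f3b differed by -0.49 ± 0.17 (adjusted p = 0.0265).

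No member was called in OpB6D2 against NmB6D2, parthenogenetic and fertilised lines of related background, where 5.42% of all probe sets were. At an unadjusted p under 0.05 limma gave 3 of 6 linker and 4 of 10 core probe sets, beside 50.7% of all, and at an adjusted p under 0.05 the same numbers, beside 44%. The median difference was 0.19 for linker and 0.23 for core probe sets, with -0.01 over all probe sets tested. FpB6CBA against NmB6D2 likewise had no call among members, against 4.31% of all. Without a minimum fold, 1 of 6 linker and 8 of 10 core probe sets passed, beside 45.6% of all, and at an unadjusted p under 0.05 the counts were 1 and 8, beside 51.9%. In OpB6D2, 5 of 10 trophectoderm markers were lower than in NmB6D2 and 0 higher, and 3 of 13 fibroblast markers were higher and 0 lower. In FpB6CBA, 10 of 12 primitive endoderm markers were higher than in NmB6D2 and 0 lower. The part of these markers in the histone differences was not tested. With 1 derivation per line, mode of origin cannot be told apart from the line.

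**Figure D3:**
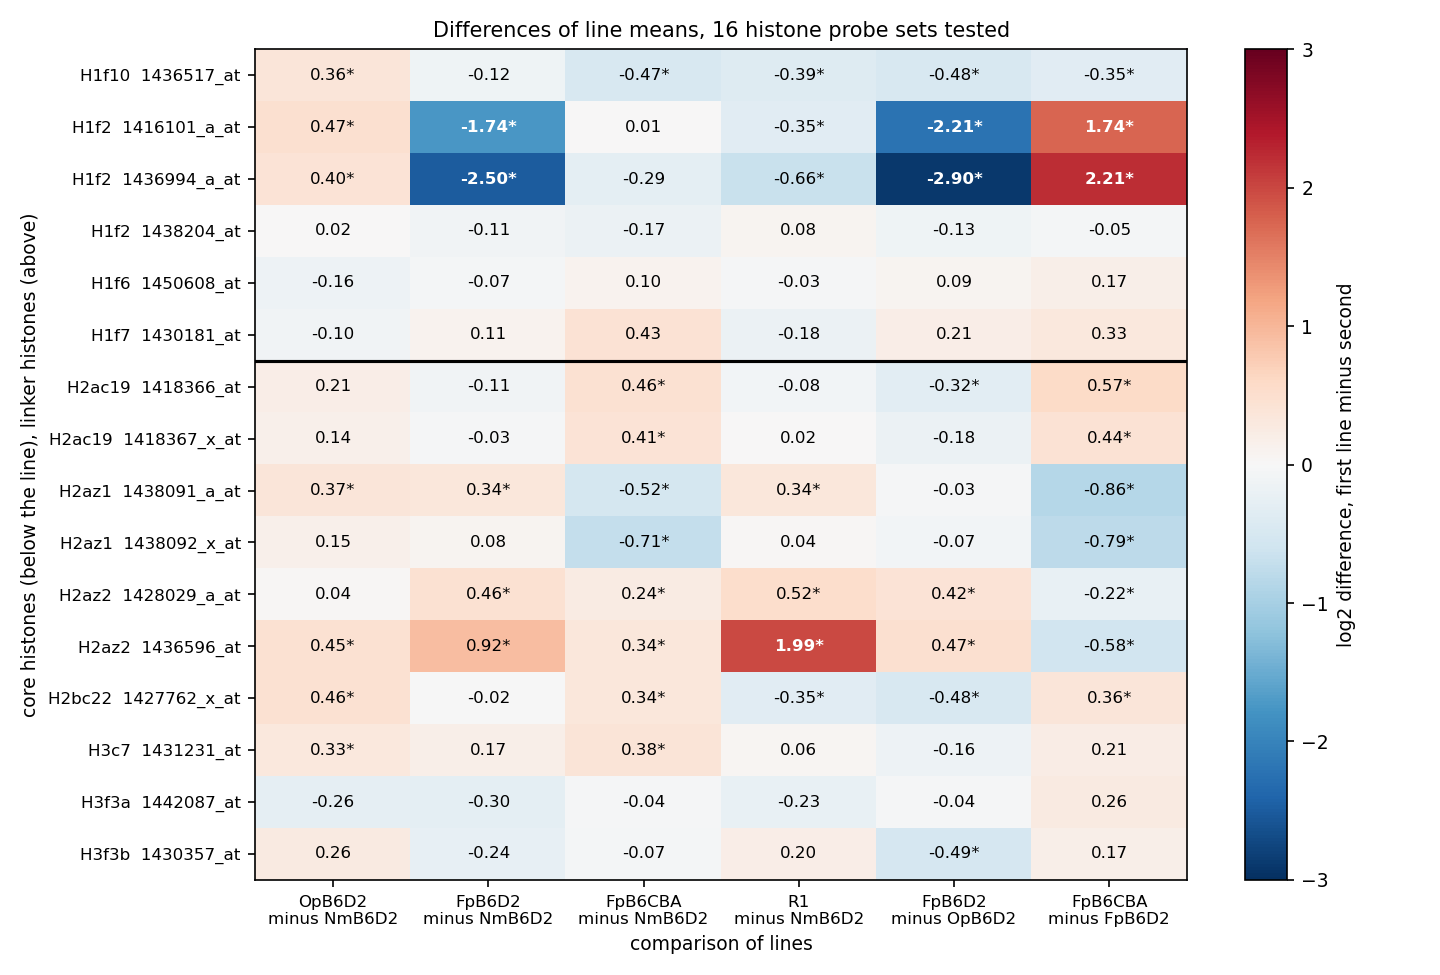
Log2 differences of line means for the 16 histone probe sets tested, in the 6 comparisons between lines, linker histones above the black line and core histones below it. An asterisk marks an adjusted p under 0.05, bold a call with at least 2-fold; the calls are H1f2 in the 3 comparisons with FpB6D2 and H2az2 in R1 against NmB6D2.

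For the 3 parthenogenetic against the 2 fertilised lines the line is the replicate, and limma on the 5 line means called 0% of all probe sets, 0 linker and 0 core. At an unadjusted p under 0.05 it gave 0 of 16 members, beside 4.44% of all, and an array-level fit with the line as a random block called 0 members, beside 0.436% of all probe sets. H1f2 (1416101_a_at) averaged 7.92 over parthenogenetic and 8.17 over fertilised lines, a difference of -0.25 ± 0.68, since OpB6D2 lay above and FpB6D2 below the fertilised lines. The widest core difference was 0.43 ± 0.23 at H2bc22 (adjusted p = 0.939).

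The clustered core genes are also read by probe sets annotated to several genes, whose copies cannot be told apart. Of 15 such probe sets tested, 13 differed among lines by the F test, beside 83.8% of all probe sets tested. The H2B probe set 1452540_a_at, annotated to 11 genes, read 10.45, 10.35 and 10.41 in OpB6D2, 9.58, 9.49 and 9.69 in NmB6D2, and 9.04, 8.94 and 8.88 in R1. OpB6D2 was highest and R1 lowest, without overlap with NmB6D2. OpB6D2 exceeded NmB6D2 by 0.82 ± 0.07 (adjusted p = 4.54e-07) and R1 lay below it by 1.55-fold (-0.63 ± 0.07, adjusted p = 2.42e-06).

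The H3 probe set 1460314_s_at (12 genes) and the H4 probe set 1422948_s_at (13 genes) had the same highest and lowest lines. The H3 probe set averaged 8.87 ± 0.14 in OpB6D2, 8.21 ± 0.04 in NmB6D2 and 7.70 ± 0.16 in R1, and the H4 probe set 8.94 ± 0.10, 8.34 ± 0.10 and 7.76 ± 0.08. In FpB6D2, where H1f2 was low, these differed from NmB6D2 by -0.12 (95% interval -0.29 to 0.06) and 0.10 (-0.06 to 0.25), and the H2B probe set by 0.02 (-0.13 to 0.17). In the same comparison 3 of the 15 probe sets passed an adjusted p under 0.05, beside 55.5% of all: H4 probe set 1424854_at at 0.51 ± 0.11 (adjusted p = 0.0013), H2B probe set 1418072_at at -0.35 ± 0.09 (adjusted p = 0.00316) and H2A probe set 1438009_at at -0.37 ± 0.07 (adjusted p = 0.000254). The last, annotated to 10 genes, lay between 12.70 and 13.17 on all arrays. In FpB6D2 against OpB6D2, 1460314_s_at differed by -0.77, 1422948_s_at by -0.50 and 1452540_a_at by -0.80. There 11 of the 15 passed an adjusted p under 0.05, beside 47.8% of all, and 0 were called. In FpB6CBA against FpB6D2, 6 of the 15 passed, beside 54.8% of all, and 0 were called. The differences were 0.43 at 1460314_s_at, 0.53 at 1452540_a_at and -0.69 at H4 probe set 1424854_at.

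Among these, 2 calls were made, 1 each way. In OpB6D2 against NmB6D2 (2.96% of all probe sets called higher), H4 probe set 1424854_at was higher by 1.01 ± 0.11 (2.02-fold, adjusted p = 4.98e-06), at the threshold: it fell short of 2-fold after median centring (0.97), after quantile normalisation (0.97), with the replicate block (0.94), without NmB6D2 replicate 3 (0.95) and without OpB6D2 replicate 1 (0.90). In R1 against NmB6D2 (5.06% called lower), H2B probe set 1418072_at was lower by 2.14-fold (-1.10 ± 0.09, adjusted p = 6.53e-08), and short of 2-fold without R1 replicate 4 (-0.99). Probe sets shared by the H3.3 genes stayed within 11.2 to 12.5 in line means and none was called.

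Of the genes matched by an older symbol, H2aw, an H2A gene that lies outside the main clusters, was lowest in FpB6D2, as H1f2 was at 2 of its probe sets. Probe set 1435866_s_at read 6.37, 6.53 and 6.15 in NmB6D2, 7.08, 6.70 and 6.56 in FpB6CBA, and 5.88, 5.76 and 5.73 in OpB6D2. It read 5.16, 5.07 and 5.36 in R1 and 4.40, 4.48 and 4.69 in FpB6D2, the lowest without overlap. FpB6D2 was lower than NmB6D2 by 3.55-fold (-1.83 ± 0.13, adjusted p = 4.46e-08) and lower than OpB6D2 by 2.41-fold (-1.27 ± 0.13, adjusted p = 4.1e-06). R1 was lower than NmB6D2 by 2.23-fold (-1.15 ± 0.13, adjusted p = 3.71e-06), and FpB6CBA exceeded FpB6D2 by 4.77-fold (2.25 ± 0.13, adjusted p = 5.11e-09). A second H2aw probe set had line means of 2.60 to 2.82, below the filter, and in a fit on gene means FpB6CBA against FpB6D2 alone kept its call, the others differing by -0.89, -0.68 and -0.61.

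H2ax, the H2A variant phosphorylated at DNA breaks, averaged 11.68 in NmB6D2, 11.64 in R1 and 11.15 in OpB6D2, a difference of -0.53 ± 0.06 for OpB6D2 against NmB6D2 (adjusted p = 5.74e-06). FpB6D2 and FpB6CBA also lay below NmB6D2 at H2ax, by differences of -0.43 and -0.31, all short of 2-fold. For parthenogenetic against fertilised lines, limma on line means called 0 of the 7 older-symbol probe sets tested. At an unadjusted p under 0.05 it gave 1 of them, beside 4.44% of all probe sets. Macroh2a1, the macroH2A variant known from the inactive X chromosome, was highest in FpB6CBA (10.33) and NmB6D2 (10.20) and lowest in R1 (9.48, -0.72 ± 0.07 against NmB6D2, adjusted p = 5.34e-07). H2aj was called lower in FpB6CBA than in NmB6D2 at 1424772_at, by 2.23-fold (-1.16 ± 0.17, adjusted p = 6.7e-05, with 2.24% of all called lower), where its other tested probe set differed by -0.25 ± 0.07. On the mean of its probe sets the difference was -0.33 and the call was lost.

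**Figure D4:**
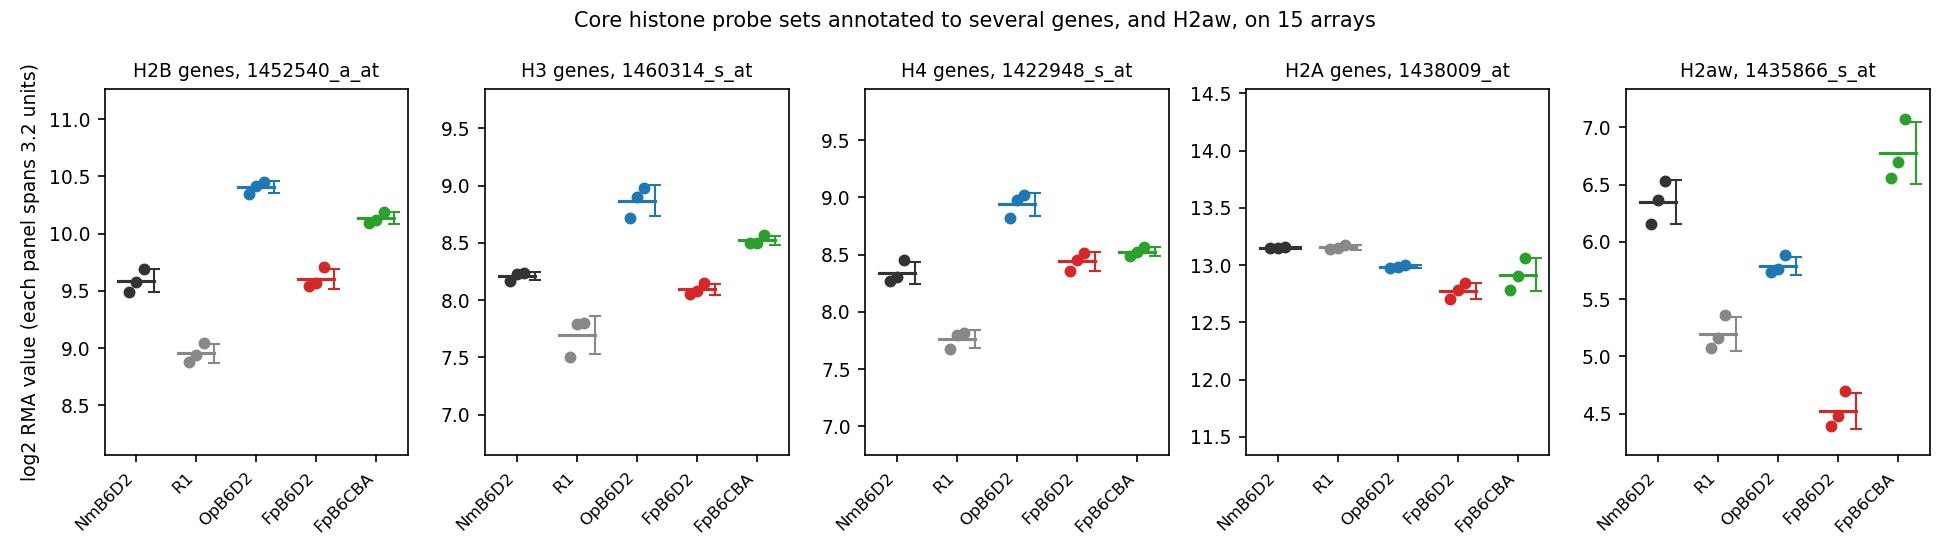
Log2 RMA values by line for 4 core histone probe sets annotated to several genes and for H2aw; points are arrays in ascending order, bars line means and error bars SD, and each panel spans 3.2 units. The H2B, H3 and H4 probe sets are highest in OpB6D2 and lowest in R1, the H2A probe set stays within 12.70 to 13.17, and H2aw is lowest in FpB6D2.

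Few genes that act on histones were called, each gene being taken by its brightest probe set. Of 32 genes for histone mRNA processing and transcription, Nfyb, a subunit of the CCAAT-binding factor NF-Y, was lower in FpB6D2 than in NmB6D2 by 2.26-fold (-1.18 ± 0.08, adjusted p = 1.62e-08). It was higher in FpB6CBA than in FpB6D2 by 2.10-fold (1.07 ± 0.08, adjusted p = 4.03e-08), where Nfyc, another NF-Y subunit, was lower by 2.58-fold and Eri1, an exonuclease that trims histone mRNA ends, by 2.01-fold. In these comparisons 5.53% of 12813 genes were called lower in the first and 5.14% in the second, with 6.03% higher in the second. In FpB6D2 against OpB6D2, where H1f2 was also called lower, 0 of the 32 genes were called, with differences of -0.64 to 0.68.

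In R1 against NmB6D2, 1 of 32 processing genes was higher (Eri1, 2.59-fold) and 1 lower (E2f1, an activator of S-phase genes, 2.61-fold). Of 48 S-phase genes 4 were lower there: Tk1 (thymidine kinase, 2.51-fold), Pole (a replicative polymerase, 2.41-fold), Ccne1 (cyclin E1, 2.17-fold) and Cdc25a (a cell cycle phosphatase, 2.09-fold), against 5.49% of all genes called lower and 7.39% higher. Of 35 chaperone genes 1 was lower, Anp32e, which removes H2A.Z from nucleosomes (2.02-fold). Elsewhere the calls were Ubn1, an H3.3 chaperone subunit, lower in OpB6D2 than in NmB6D2 (2.06-fold, with 2.6% of genes lower), Ccne2, cyclin E2, lower in FpB6CBA than in NmB6D2 (2.16-fold, 1.63%), and Uhrf1, which maintains DNA methylation, lower in FpB6D2 than in OpB6D2 (2.01-fold, 2.44%). The list medians lay within -0.23 to 0.09 in the comparisons between lines, and the medians over all genes within -0.04 to 0.02.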

How the data were processed

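Affymetrix Mouse Genome 430 2.0 arrays of 5 mouse ES cell lines, 3 arrays each, were analysed from 1 deposited table of 45101 probe sets. The deposited values are log2 intensities made by the authors with affy and RMA, per the submitters' processing notes, with versions and settings not given in the sources used here. That the scale is log2 follows from the values, which reach 13.96 at most. Per the labels' protocols, cDNA was primed with oligo(dT) and labelled by in vitro transcription. RMA makes levels relative within an array, so a shift shared by most genes would not show.

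Probe sets were named through the platform annotation. Of 45037 non-control probe sets, 34945 carried 1 symbol, 932 several and 9160 none. A level of 3.864 or more on at least 3 arrays was required, which kept 24524. All line comparisons were contrasts in 1 limma fit (limma 3.58.1, R 4.3.3). Parthenogenetic and fertilised lines were compared on line means. P-values were adjusted by Benjamini-Hochberg over all probe sets tested, and the fit was tested on simulated data. Folds against a line mean below 3.864 would be lower bounds. Promoters came from RefSeq, and plots from matplotlib 3.10.9. Precision is limited by having 3 arrays per line.

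The members and the gene lists were chosen with earlier results of these data known. All linker probe sets, the called core probe sets, 1 gene per variant class and up to 3 called genes per pathway list and comparison are named, with the other members given by range. H2az1, H2ac19, H2bc22, H2aw, H2aj and the probe sets annotated to several genes were described in more detail than that rule asks after their values were seen. Alternatives were other filters, gene-level summaries, centring, quantile normalisation, variance models, array weights, fits on the lines compared, a replicate block, other thresholds, and leaving out each array or line.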

Additional observations from a re-analysis of the deposited data

How the results depend on the processing

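The calls of members kept their direction under all alternatives that could test them, and the counts changed as follows. With no minimum fold the linker and core counts were 3 and 4 for OpB6D2 against NmB6D2, 2 and 3 for FpB6D2 against NmB6D2, 1 and 8 for FpB6CBA against NmB6D2, 3 and 4 for R1 against NmB6D2, 3 and 5 for FpB6D2 against OpB6D2, and 3 and 7 for FpB6CBA against FpB6D2. With 1 probe set per gene, or with the mean of the probe sets of a gene, the linker count was 1 rather than 2 in each of the 3 comparisons with FpB6D2, and the F test gave 5 core genes rather than 8 probe sets, because fewer units were tested. With 1 probe set per gene, R1 against NmB6D2 had 0 core calls. After removing the _a_at, _s_at and _x_at probe sets there were 0 linker calls in the 3 comparisons with FpB6D2, since both H1f2 probe sets called are of that kind, and the F test gave 1 linker and 3 core probe sets.

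Leaving out 1 array at a time kept every count between lines at its value (0 to 2), while the F counts ranged from 3 to 5 for linker and from 8 to 9 for core probe sets. The cause of the 5 without FpB6CBA replicate 3 was not tested. H2aj in FpB6D2 against NmB6D2 was the 1 reversed value, at -0.23 on the mean of its probe sets, which moved in opposite directions (0.26 at 1424771_at and -0.99 at 1424772_at). With the replicate block, fitted over the 13 arrays whose titles give a number, the F test gave 3 linker and 6 core probe sets and the counts of members between lines did not change. Beyond the members, the block ended the call of H4 probe set 1424854_at in OpB6D2 against NmB6D2 (0.94) and made one of H2aj probe set 1424772_at in FpB6D2 against NmB6D2 (-1.10). The deviations of same-numbered arrays of different lines had correlations of -0.19 to 0.12 (12 pairs, median 0.01). For the 55 pairs with different numbers the correlations were -0.12 to 0.15. With so few pairs and 3 arrays per line, a weak or partial pairing would not show in these values.

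The deposited values carry no detection calls or scanner signals, so weak probe sets near 3.864 have no measured background, and 8 member probe sets could not be tested.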
